A study of Rattus norvegicus with 24 samples.

Results

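Liver RNA was compared between 9 rats whose libraries held no RT1-Bb count and 15 rats whose libraries held RT1-Bb counts, out of 24 in all. The groups were chosen by the raw count of RT1-Bb, so the levels of RT1-Bb and of its partner chain RT1-Ba are given below as a description, with no test. The animals were Sprague-Dawley rats, an outbred stock in which littermates and cage mates can carry different alleles, and each library came from 1 animal. Exposed animals inhaled PCB 52, a polychlorinated biphenyl, nose-only during 28 days of 4 hours each at 12 L/min, females from an age of 42 days and males from 39 days, and sham animals were the controls, with the labels giving the same ages and the same inhalation protocol text for them.

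The 9 animals without RT1-Bb were 3 PCB 52 females, 3 PCB 52 males and 3 sham females. The 15 animals with RT1-Bb were 3 PCB 52 females, 3 PCB 52 males, 3 sham females and 6 sham males. No sham male was without RT1-Bb (0 of 6), so in males the contrast of RT1-Bb within 1 treatment rested on 3 against 3 exposed animals. Sex was also the table of origin, since the counts were deposited in 1 table for each sex. Females were 6 of the 9 animals without RT1-Bb and 6 of the 15 with it. Ranges, medians and counts of animals above or below a median pooled the sexes unless a sex is named. Library totals ran from 7480357 to 9185511 counts (median 8007881) in animals without RT1-Bb and from 6994832 to 8917921 counts (median 8096193) in animals with it. Albumin, the defining product of hepatocytes, took between 91805 and 132550 CPM (counts per 1000000 counts of the library) in every library. Its level was below the median of animals with RT1-Bb in 8 of 9 animals without it. The ranges overlapped, with 7 of 15 animals with RT1-Bb above every animal without it.

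RT1 is the rat major histocompatibility complex (MHC). Its class II molecules are pairs of an alpha and a beta chain that carry peptides from endocytosed proteins to the surface of dendritic cells, macrophages and B cells, where CD4+ T cells read them. RT1-Ba and RT1-Bb encode the alpha and beta chains of RT1.B, the rat counterpart of human HLA-DQ, and RT1-Da and RT1-Db1 encode those of RT1.D, the counterpart of HLA-DR. RT1-DMa and RT1-DMb form the chaperone that exchanges peptides in endosomes, and RT1-DOa and RT1-DOb form its modulator. The genes lie close together and are inherited as haplotypes that differ between animals in sequence and in gene content.

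The promoters of the 4 chains of RT1.B and RT1.D are shown because the chains differed in how they were counted across these livers. Each line gives 300 bases, 250 before and 50 after the RefSeq start, 5′ to 3′ on the strand of the gene, in build GRCr8: RT1-Bb at chr20:4604069-4604368 on the minus strand, RT1-Ba at chr20:4576807-4577106 on the plus strand, RT1-Db1 at chr20:4560113-4560412 on the minus strand and RT1-Da at chr20:4515165-4515464 on the plus strand. Capitals mark TGATTGG, the inverted CCAAT box (Y box) of MHC class II promoters, to which the factor NF-Y is known to bind.
RT1-Bb: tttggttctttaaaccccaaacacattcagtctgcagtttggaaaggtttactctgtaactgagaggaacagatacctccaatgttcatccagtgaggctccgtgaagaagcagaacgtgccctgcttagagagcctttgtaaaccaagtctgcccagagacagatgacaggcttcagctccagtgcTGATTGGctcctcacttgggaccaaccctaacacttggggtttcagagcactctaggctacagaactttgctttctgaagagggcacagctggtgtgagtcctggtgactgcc
RT1-Ba: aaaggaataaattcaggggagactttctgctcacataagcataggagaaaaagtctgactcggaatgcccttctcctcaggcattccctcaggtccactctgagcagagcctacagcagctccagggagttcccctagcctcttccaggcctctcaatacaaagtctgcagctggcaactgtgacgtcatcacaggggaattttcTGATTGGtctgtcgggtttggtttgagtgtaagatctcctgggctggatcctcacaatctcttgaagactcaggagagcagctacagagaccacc
RT1-Db1: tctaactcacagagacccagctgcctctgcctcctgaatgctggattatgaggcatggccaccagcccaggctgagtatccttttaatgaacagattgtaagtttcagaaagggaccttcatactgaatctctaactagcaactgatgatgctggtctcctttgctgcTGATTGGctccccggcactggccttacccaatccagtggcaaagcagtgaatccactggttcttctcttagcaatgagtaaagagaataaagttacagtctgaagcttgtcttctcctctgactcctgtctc
RT1-Da: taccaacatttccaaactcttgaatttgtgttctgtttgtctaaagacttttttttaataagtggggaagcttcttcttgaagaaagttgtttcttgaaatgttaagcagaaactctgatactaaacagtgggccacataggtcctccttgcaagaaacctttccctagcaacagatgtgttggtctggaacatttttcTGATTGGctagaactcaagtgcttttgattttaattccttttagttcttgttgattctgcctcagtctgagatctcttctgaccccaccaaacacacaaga

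TGATTGG, searched on both strands, began 63 bases before the start in RT1-Bb, 45 in RT1-Ba, 82 in RT1-Db1 and 51 in RT1-Da. It was present in 9 of the 9 class II promoters that RefSeq supplied for the 10 class II genes measured (all but RT1-DMb), and in 7.06% of all 33469 promoters of the same length. These are letters of the reference animal's genome, and the match describes the window and not a site used in these livers.

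RT1-Bb was at 0 counts in each of the 9 animals without it. In the 15 animals with it, the lowest count was 43, the median 94 and the highest 159, or 5.57, 11.9 and 18.97 CPM. No library lay between 0 and 43 counts, so the groups did not depend on where a low threshold was placed. Over the 9 libraries together, 3 counts would be 0.0406 CPM, so RT1-Bb was at least 288.5-fold lower than the mean of 11.7 ± 3.71 CPM in animals with it (SD, n = 15). That floor covers counting error only.

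RT1-Ba, the alpha chain, had between 2 and 9 counts (median 4) in animals without RT1-Bb, against 61 to 216 counts (median 98) in animals with it. The ranges did not overlap. Its mean was 0.578 CPM without RT1-Bb and 13.6 CPM with it, 23.5 times as high in the animals with it. Both genes of the RT1.B pair thus sorted the 24 animals in the same way, and RT1-Ba kept a few reads where RT1-Bb had none. A count of 0 says that no read was assigned to the row: a transcript that was not made and a transcript of an allele too divergent to align to the reference build cannot be told apart in these counts. In bulk tissue, fewer cells of a type and less RNA per cell cannot be told apart either.

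**Figure D1:**
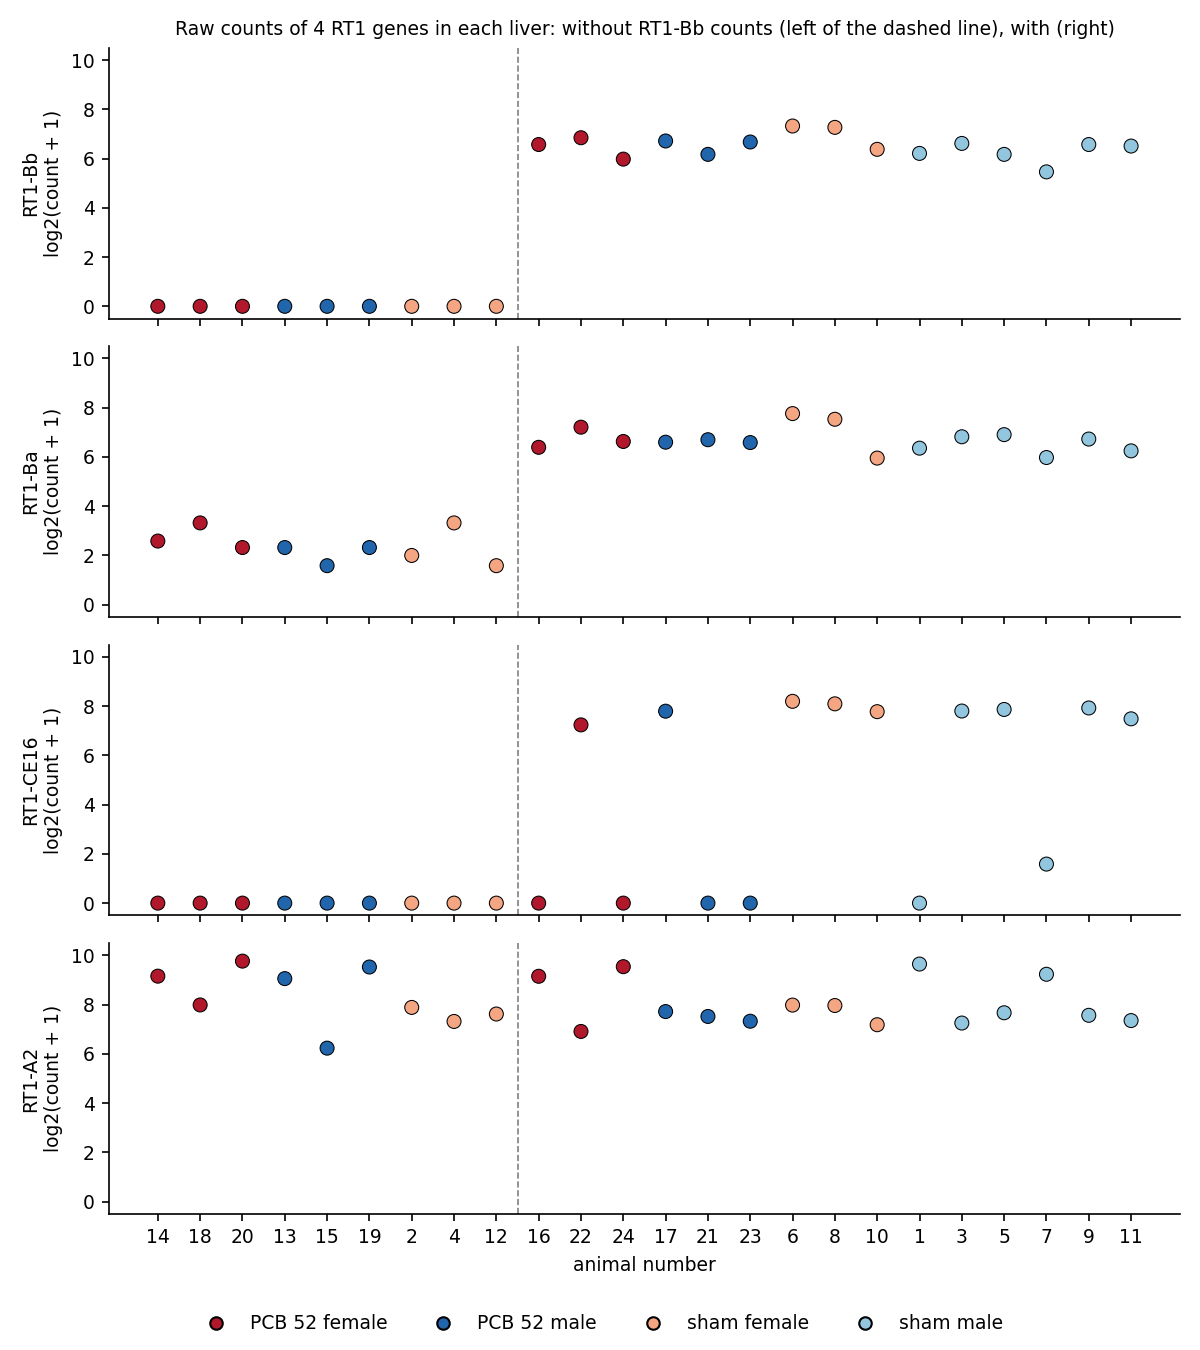
Each point is the raw count of 1 gene in 1 liver, on a log2(count + 1) axis, with the 9 animals without RT1-Bb left of the dashed line, the 15 with it on the right, and colours for sex and treatment. RT1-Bb and RT1-Ba split the animals in the same way, RT1-CE16 was at 0 in all animals without RT1-Bb and in some with it, and RT1-A2 had an upper level (530 to 868 counts) on both sides.

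Across all genes, the contrast was fitted with edgeR's quasi-likelihood test with sex and treatment as factors, and p-values were adjusted by Benjamini-Hochberg over all genes tested. Of 10593 genes, 2 were lower (0.0189%) and 0 were higher (0%) in animals without RT1-Bb at an adjusted p under 0.05. Those 2 were RT1-DMb, a class II gene 6 measured genes away from RT1-Bb in RefSeq order, and Kiaa1191, which lies on another chromosome. At an unadjusted p under 0.05, 299 genes were lower (2.82%) and 244 were higher (2.3%), and DESeq2 called 4 genes.

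RT1-DMb, the beta chain of the peptide-exchange chaperone, was lower in livers without RT1-Bb. Its lowest, median and highest levels were 18.6, 25.9 and 31.2 CPM in animals without RT1-Bb, against 25.0, 33.6 and 46.1 CPM in animals with it. The pooled ranges overlapped, but 9 of 9 animals without RT1-Bb were below the median of those with it, and 11 of 15 animals with it were above every animal without it. The means were 24.8 ± 4.72 CPM without (SD, n = 9) and 34.1 ± 6.30 CPM with RT1-Bb (SD, n = 15). The log2 fold change was −0.57 ± 0.10 (SE; 95% interval −0.77 to −0.38; edgeR adjusted p = 0.0178). Without sham female replicate 2, the library whose omission raised the edgeR adjusted p most, that p was 0.0903.

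Within each sex the RT1-DMb levels did not overlap. Females without RT1-Bb had 20.02 to 31.2 CPM (n = 6) against 31.4 to 46.1 CPM in females with it (n = 6). Males without RT1-Bb had 18.6 to 23.2 CPM (n = 3) against 25.0 to 39.2 CPM in males with it (n = 9). Of the 10593 genes tested, 1 was lower without overlap in both sexes (0.00944%), and that gene was RT1-DMb. No gene was higher without overlap in both sexes (0%), and none separated the pooled groups without overlap (0% in either direction).

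Fitted in subsets, RT1-DMb had log2 fold changes of −0.60 ± 0.12 in the PCB 52 libraries alone and −0.63 ± 0.15 in sham females alone, and passed in neither (edgeR adjusted p = 0.481 and 0.723). In sham females, levels were 25.9, 27.2 and 31.1 CPM without RT1-Bb and 38.7, 42.1 and 46.1 CPM with it. In PCB 52 females they were 20.02, 26.1 and 31.2 CPM without and 31.4, 34.9 and 38.5 CPM with it, and in PCB 52 males 18.6, 19.8 and 23.2 CPM without and 27.3, 33.0 and 37.9 CPM with it. In each of these 3 groups the highest animal without RT1-Bb was below the lowest animal with it. The 6 sham males, all with RT1-Bb, had 25.0 to 39.2 CPM.

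RT1-DMa, the alpha chain of the chaperone and the neighbour of RT1-DMb in RefSeq order, did not pass the test. Its log2 fold change was −0.40 ± 0.11 (edgeR adjusted p = 0.562), and 5 of 9 animals without RT1-Bb were below the median of those with it. That count pooled the sexes, which differed in level. Females had 13.5 to 20.5 CPM of RT1-DMa without RT1-Bb and 15.4 to 28.9 CPM with it. Males had 7.37 to 10.8 CPM without and 9.51 to 17.95 CPM with it. The log2 fold changes of both chaperone chains were negative in females (−0.56 ± 0.11 for RT1-DMb and −0.35 ± 0.14 for RT1-DMa) and in males (−0.71 ± 0.17 and −0.51 ± 0.21).

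RT1-Db1, the beta chain of RT1.D, had a positive log2 fold change of 0.95 ± 0.23 that missed the threshold (edgeR adjusted p = 0.3995). Its lowest, median and highest levels were 12.7, 20.3 and 38.1 CPM in animals without RT1-Bb, against 3.71, 8.98 and 19.2 CPM in animals with it. All 9 animals without RT1-Bb were above the median of those with it, 5 of them were above every animal with it, and the ranges overlapped between 12.7 and 19.2 CPM. The lowest adjusted p over the alternatives run was 0.0947, and the log2 fold change lay between 0.85 and 1.15 in them. Beta-chain genes are close in sequence to each other and the handling of shared reads is not given, so the split of counts between these paralogs is uncertain.

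RT1-Da, the alpha chain of RT1.D, did not pass. Its log2 fold change was −0.11 ± 0.09 with a 95% interval of −0.30 to 0.08 (edgeR adjusted p = 0.988). RT1-DOa, the alpha chain of the DM modulator, had a log2 fold change of 0.22 ± 0.34 (edgeR adjusted p = 0.996). Of the 11 class II genes listed, 10 were measured, 5 besides RT1-Ba and RT1-Bb were abundant enough to test, and 1 of those 5 passed, in the lower direction. At an unadjusted p under 0.05, 2 were lower and 1 higher, beside 2.82% lower and 2.3% higher of all genes tested. RT1-DOb, RT1-Db2 and RT1-Ha had too few counts to test.

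**Figure D2:**
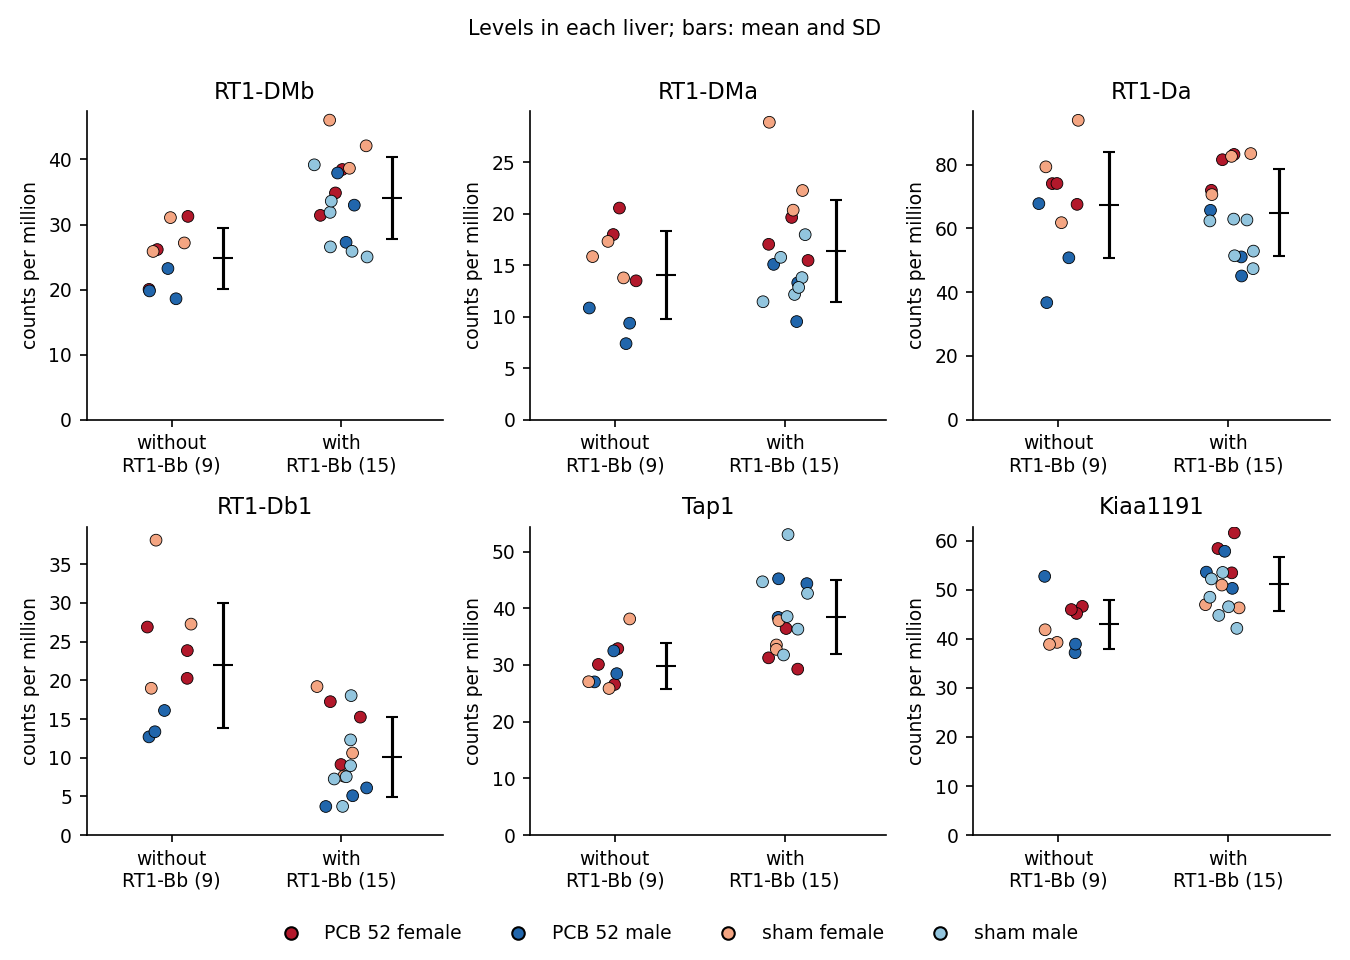
Each point is the level of 1 gene in 1 liver in CPM, animals without RT1-Bb on the left of each panel and with it on the right, and bars give the mean and SD of 9 and 15 animals. RT1-DMb and Kiaa1191 passed the test in the lower direction, RT1-Db1 lay mostly higher without passing, and RT1-Da overlapped.

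None of the listed partners of class II molecules, a list that leaves out the DM and DO chains, passed the test. Of 17 measured partners of class II molecules, among them Cd74, the invariant chain that fills the peptide groove, 0 passed the edgeR test and 0 had an unadjusted p under 0.05. Cd74 had 115.2 to 233 CPM (median 162) in animals without RT1-Bb and 112 to 238 CPM (median 170) in animals with it, a log2 fold change of −0.11 ± 0.09 (edgeR adjusted p = 0.985). The median log2 fold change of the 17 was 0.01, against 0.00 over all genes tested.

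Markers of the cells that carry class II molecules overlapped in level between the groups. The summed level of 15 measured Kupffer cell and macrophage markers was 788 to 1292 CPM without RT1-Bb and 737 to 1099 CPM with it. The summed level of 10 measured dendritic cell markers was 43.0 to 82.4 CPM without and 39.5 to 87.7 CPM with RT1-Bb, and that of 8 B cell markers was 11.7 to 22.2 CPM without and 9.44 to 18.3 CPM with it. In these 3 lists 0 of the 15, 9 and 3 members tested passed or had an unadjusted p under 0.05. The log2 fold changes were negative for 9 of 9 dendritic cell markers (median −0.11), 9 of 15 Kupffer cell and macrophage markers (median −0.02) and 1 of 3 B cell markers (median 0.35). Over all genes tested, 5156 of 10593 were negative. Sinusoidal endothelial (7 of 7) and stellate cell markers (8 of 11) were also mostly negative, and T and NK cell markers (3 of 9) were not. The median summed level of the dendritic cell markers was 62.0 CPM without RT1-Bb and 53.4 CPM with it. The part of any cell type in the result for RT1-DMb was not tested.

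RT1-Bb lies inside the MHC, and the genes nearest to it were set beside the rest of the genome by gene order. Within 10 measured genes of RT1-Bb, 5 of 10 genes tested had an unadjusted p under 0.05, 4 lower and 1 higher, and 1 passed the adjusted threshold. At 11 to 40 genes away 4 of 51 had such a p (7.84%), at 41 to 120 genes 8 of 100 (8%), and farther away on the same chromosome 11 of 173 (6.36%). On other chromosomes or unplaced it was 515 of 10259 (5.02%). The 5 near genes were RT1-Db1 on one side and Tap1, Psmb9, RT1-DMb and RT1-DMa on the other, and neighbours of 1 haplotype are not independent of each other.

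Tap1 and Psmb9, which are class I genes by function although they sit among the class II genes, did not pass. Tap1, a subunit of the peptide transporter of the endoplasmic reticulum, had 25.9, 28.5 and 38.1 CPM (lowest, median, highest) without RT1-Bb and 29.3, 37.8 and 53.0 CPM with it. Of the 9 animals without RT1-Bb, 8 were below the median of those with it, and the log2 fold change was −0.32 ± 0.09 (edgeR adjusted p = 0.582). Psmb9, an immunoproteasome subunit, had a log2 fold change of −0.28 ± 0.12 (edgeR adjusted p = 0.914). Fitted in each sex alone, its contrast was −0.03 ± 0.15 in females and −0.78 ± 0.16 in males. The difference between the sexes, tested in a fit of all 24 libraries with 1 treatment effect, did not pass (edgeR adjusted p = 0.895). Of 14 class I pathway genes tested 0 passed, and the median log2 fold change was 0.00. At an unadjusted p under 0.05, 2 were lower and 0 higher, beside 2.82% lower and 2.3% higher of all genes tested. Tap2, the other transporter subunit, had a log2 fold change of 0.19 ± 0.09 (edgeR adjusted p = 0.963).

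**Figure D3:**
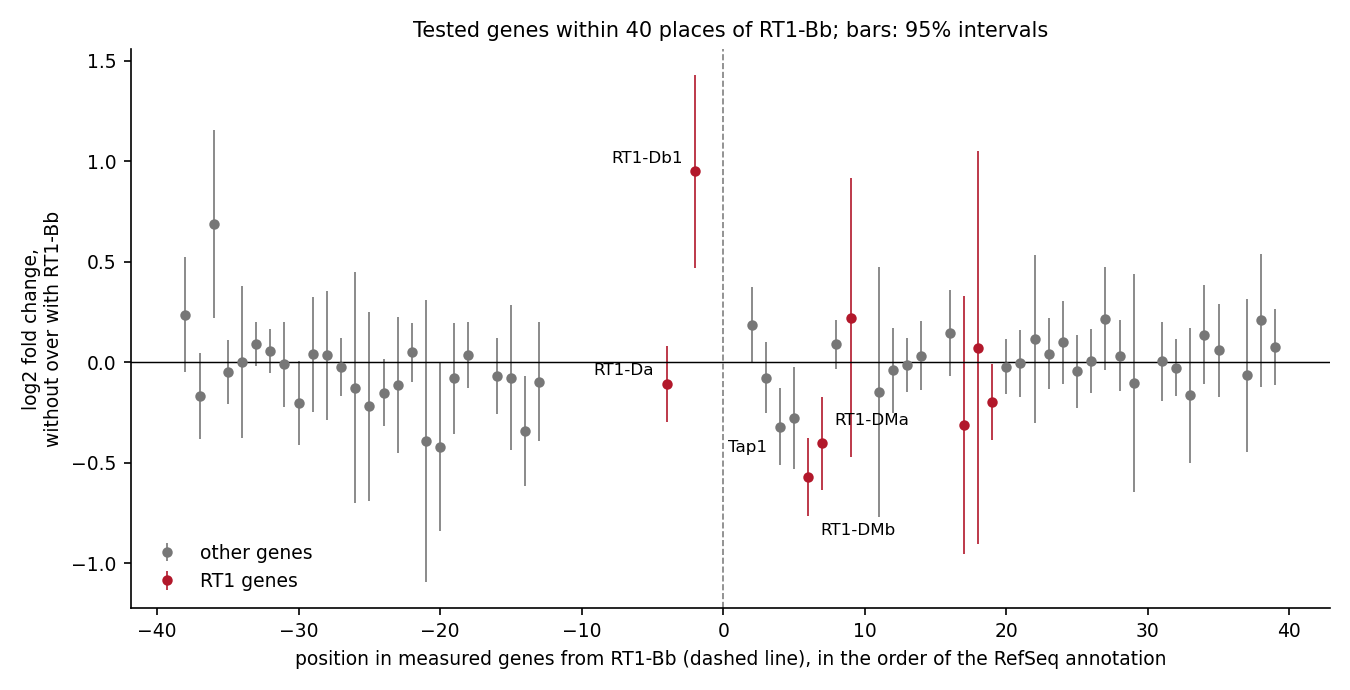
Log2 fold changes (without over with RT1-Bb) of the genes tested within 40 places of RT1-Bb, in RefSeq gene order, with 95% intervals and RT1 genes in red. RT1-Db1 (0.95) and RT1-DMb (−0.57) stand on either side of RT1-Bb, and most genes beyond 10 places lie near 0.

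Other genes of the MHC region lay in both directions. Of 78 genes tested that lie in the region and serve other functions, 0 passed, 36 had negative and 42 positive log2 fold changes, and the median was 0.02. At an unadjusted p under 0.05, 4 of the 78 were lower and 4 higher, beside 2.82% lower and 2.3% higher of all genes tested. Slc44a4, a choline-like transporter family member, had a log2 fold change of 0.69 ± 0.23 (edgeR adjusted p = 0.742), and Notch4, an endothelial Notch receptor, one of −0.34 ± 0.13 (edgeR adjusted p = 0.865). Of 35 interferon response genes tested, which share regulators with the MHC, 0 passed, 1 was lower and 0 were higher at an unadjusted p under 0.05, with a median of 0.05.

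No other RT1 gene passed. Of 45 RT1 symbols measured, 25 besides the pair were tested and 18 had too few counts, and among the 20 tested that are not class II genes 0 passed, 3 were lower and 1 higher at an unadjusted p under 0.05. Of all genes tested, 2.82% were lower and 2.3% higher at such a p. The median log2 fold change of the 20 was 0.08. The smallest p among them was that of RT1-T24-1, named after its values were seen, with 0.535, 1.33 and 2.40 CPM (lowest, median, highest) without RT1-Bb and 0.779, 2.09 and 7.22 CPM with it. Of 9 animals without RT1-Bb, 6 were below the median of those with it, and the log2 fold change was −1.19 ± 0.29 (edgeR adjusted p = 0.391). RT1-S3, the most abundant, had 263 to 484 CPM (median 342) without RT1-Bb and 224 to 435 CPM (median 336) with it, a log2 fold change of 0.09 ± 0.10 (edgeR adjusted p = 0.996). RT1-A1 had a log2 fold change of −0.20 ± 0.09 (edgeR adjusted p = 0.937).

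RT1-CE16, a class I gene 84 measured genes from RT1-Bb that was chosen after its values were seen, was at 0 counts in 9 of 9 animals without RT1-Bb. In the animals with RT1-Bb it had 150 to 292 counts in 9 and 0 to 2 counts in 6. Presence of RT1-CE16 was thus seen only among these animals with RT1-Bb, without separating the groups, and it did not pass (edgeR adjusted p = 0.687).

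RT1-A2, a class I gene of the classical RT1-A type, had a lower range of 74 to 252 counts in 16 animals and an upper range of 530 to 868 counts in 8. The upper range held 4 animals without RT1-Bb (13, 14, 19 and 20) and 4 animals with it (1, 7, 16 and 24). The log2 fold change between the RT1-Bb groups was 0.07 ± 0.47 (edgeR adjusted p = 0.998), and its sign turned in 7 of 37 alternatives. Taking the 3 genes together, the animals without RT1-Bb fell into 4 with RT1-A2 in its upper range and 5 in its lower range, none with RT1-CE16. Animals with RT1-Bb fell into 9 with RT1-CE16 and low RT1-A2, 4 with high RT1-A2 and no upper-range RT1-CE16, and 2 with both low. No animal had both RT1-CE16 and RT1-A2 in the upper range. These combinations are a description of counts, and class I paralogs can share reads.

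Kiaa1191, the other gene that passed, had 37.2, 41.8 and 52.7 CPM (lowest, median, highest) in animals without RT1-Bb and 42.1, 50.9 and 61.6 CPM in animals with it. Of 9 animals without RT1-Bb, 8 were below the median of those with it, and the ranges overlapped. The log2 fold change was −0.36 ± 0.07 (edgeR adjusted p = 0.0420). It passed in 13 of 37 alternatives, against 33 of 37 for RT1-DMb. Without animals 13 to 16, neither gene passed, with log2 fold changes of −0.53 for RT1-DMb and −0.30 for Kiaa1191.

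The genes next in p were of varied function and did not pass. On the lower side, A1bg, which encodes a plasma glycoprotein, had a log2 fold change of −0.87 ± 0.19 (edgeR adjusted p = 0.231). A1bg had 1508 to 2547 CPM in females without RT1-Bb and 2282 to 4973 CPM in females with it, and at most 6 counts in a male. Ccrl2, a chemokine-binding receptor, had a log2 fold change of −1.37 ± 0.31, and Peg3, an imprinted zinc finger gene, one of −0.41 ± 0.09 (edgeR adjusted p = 0.244 each). Peg3 had 89.3 to 155 CPM without and 119 to 247 CPM with RT1-Bb in females, against 40.8 to 46.5 CPM without and 28.2 to 44.0 CPM with it in males. On the higher side, Ttll9, of the tubulin ligase-like family, had a log2 fold change of 1.41 ± 0.34 (edgeR adjusted p = 0.380), Cd59b, a complement regulator, 0.24 ± 0.06, Gtf2f1, a subunit of a general transcription factor, 0.29 ± 0.07, Nsd2, a histone methyltransferase, 0.37 ± 0.10 and Eps8l2, of the EPS8 family of actin regulators, 0.33 ± 0.09. The edgeR adjusted p for the last 4 ran from 0.359 to 0.562.

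The contrast was also fitted in each sex alone, in animals that share no library. By edgeR, 0 of 10458 genes passed in females (0%), with 577 at an unadjusted p under 0.05 and 21 called by DESeq2. In males 0 of 10467 passed (0%), with 608 at an unadjusted p under 0.05 and 8 called by DESeq2. The female and male fold changes had the same sign for 13 of 23 RT1 genes tested in both (56.5%) and for 4663 of all 10289 genes tested in both (45.3%). The difference of the contrast between the sexes passed for 0 of 10769 genes by edgeR (0%, with 569 at an unadjusted p under 0.05) and for 0 by DESeq2. That fit used all 24 libraries with 1 treatment effect for both sexes. Its values need not equal the difference between the separate female and male fits. The difference between PCB 52 and sham animals passed for 0 of 10769 (0%; 370 at an unadjusted p under 0.05; DESeq2 0). Among sham animals only females held both RT1-Bb groups (3 without and 3 with), so this difference could not be examined in males. For RT1-DMb the female contrast minus the male contrast was 0.02 ± 0.20 and the PCB 52 contrast minus the sham contrast was −0.09 ± 0.19, with edgeR adjusted p of 0.997 and 1.

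**Figure D4:**
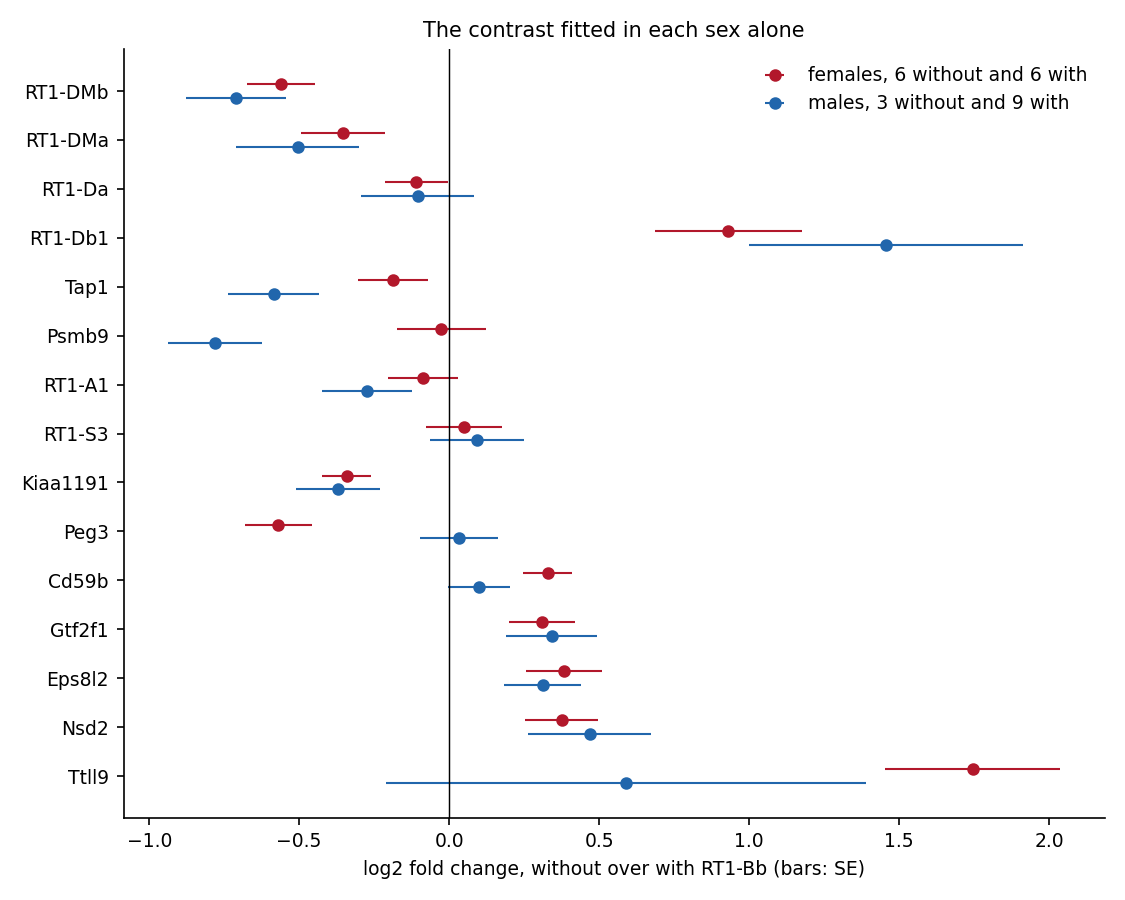
Log2 fold changes (without over with RT1-Bb) and SE of 15 named genes, fitted in females (red) and in males (blue) alone. RT1-DMb (−0.56 in females, −0.71 in males), RT1-DMa, RT1-Db1 and Kiaa1191 lie on the same side of 0 in both sexes, and Psmb9 (−0.03 and −0.78) and Peg3 (−0.57 and 0.03) lie apart.

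Libraries also varied along an axis of expression that the labels do not name, the leading component of within-group variation (13.9% of it). Scores ran from −15.7 to 23.4 (median −8.67) in animals without RT1-Bb and from −10.7 to 20.6 (median −3.72) in animals with it, with animals 13 to 16 high. These scores keep differences between the groups. The covariate fitted was the component with the mean of each study group and RT1-Bb group removed. It could therefore not adjust for a difference in score between the groups. With that covariate, RT1-DMb and Kiaa1191 passed among 4 genes.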

How the data were processed

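Gene counts of 24 liver libraries, 1 per animal, were deposited by the authors without normalization, in 1 table for each sex, per the labels. The submitters' processing notes name FastQC, HISAT2 and rat build rn6. How reads were counted, on which strand and with which annotation is not given in the sources used here, so overlapping and antisense genes could not be told apart. Both tables held the same 15319 gene IDs, joined by ID, and 15230 matched a symbol in a RefSeq table of GRCr8. That build differs from rn6, so the table gave names and gene order only, and 89 IDs without a symbol were tested but not named.

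The groups followed the raw RT1-Bb count (0 against above 0). The members and gene lists were chosen with earlier results of these data known. Counts were tested with edgeR 4.0.16 in R 4.3.3 (TMM factors from 0.949 to 1.05, filterByExpr with minimum count 10 and minimum total 15, robust quasi-likelihood test, Benjamini-Hochberg threshold 0.05). RT1-Bb and RT1-Ba stayed out of the adjustment. CPM are counts per 1000000 of the library total. P-values set the difference between the groups against the spread between animals. Replicate numbers follow accession order and pair no animals. Named genes were the class II genes, the 3 most abundant other RT1 genes and any that passed, the genes of smallest p (to 5 in each direction) and up to 4 members of each list; a gene selected by this rule is not reported here. Alternatives used DESeq2 1.42.0, limma 3.58.1 and sva 3.50.0. Scripts were tested on simulated data. Promoters are from RefSeq.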

Additional observations from a re-analysis of the deposited data

Results flagged for a closer look

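Ccrl2 in animals without RT1-Bb had 1 library far from the others: sham female replicate 1, at 1.02 CPM, the highest of 9, with the next at 0.535 CPM. The gap was 0.535 of the range of the group, above Dixon's critical value of 0.493 for 9 libraries. It was 1 of 19 genes examined in this way, and chance flags about 1 group in 20. Ccrl2 had 1 to 9 counts in these libraries, against 3 to 18 counts in animals with RT1-Bb, and the log2 fold change without that library was −1.67.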

How the results depend on the processing

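The count of 2 genes passing was within 1.5 times under RLE factors, no filter, a 1 CPM filter, limma-voom, a fit that was not robust and a threshold of 0.10. It became 4 with DESeq2, 4 with the leading component as a covariate, 5 with 1 surrogate variable, 1 with the 4 study groups as a factor and 1 without animals 13 to 16. In alternatives chosen after seeing the data it was 0 in PCB 52 libraries alone, 1 in sham females alone and 1 without sham males. With 1 library left out it ran from 0 (sham female replicate 2) to 4 (sham female replicate 5 or PCB 52 female replicate 2), from 0 to 6 in females, where DESeq2 called 21, and from 0 to 32 in males, where DESeq2 called 8 and the 32 came without PCB 52 male replicate 4; the cause was not tested. RT1-DMb kept its direction in 37 of 37 alternatives (log2 −0.63 to −0.53, edgeR or DESeq2 or limma adjusted p from 1.72e-04 to 0.723) and lost its call in 4: without animals 13 to 16, in PCB 52 libraries alone, in sham females alone and without sham female replicate 2 (adjusted p = 0.0903). RT1-A2 turned to −0.17 in sham females alone and ran from −0.095 to 0.32 with 1 library left out. Leaving out libraries with 1 to 9 RT1-Bb counts gave no value, since none had such counts. No paired analysis was possible because the labels give no replicate numbers shared between groups. Depth limits genes of few counts, among them RT1-DOa, RT1-DOb and Ccrl2.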

Other observations

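Dusp15, a dual-specificity phosphatase gene chosen after its values were seen, had too few counts to be tested with the filter used. It had 21, 31, 6, 12 and 23 counts in 5 of 9 animals without RT1-Bb (animals 2, 4, 12, 18 and 20, all females), 0 in the other 4, and 0 or 1 in each of the 15 animals with RT1-Bb. The share of all genes with such a one-sided pattern is not given, and a link of Dusp15 to RT1-Bb was not tested. Ttll9, its neighbour in RefSeq order on a chromosome other than that of RT1-Bb, had 46, 37, 61, 44 and 52 counts in those 5 animals and 17 in the remaining female without RT1-Bb, against 4 to 18 counts in females with it. In males, Ttll9 had 4, 9 and 23 counts without RT1-Bb and 3 to 24 counts with it.

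Among non-parenchymal markers, 7 of 7 sinusoidal endothelial markers tested had negative log2 fold changes (median −0.11, 0 passing, 2 at an unadjusted p under 0.05), beside 5156 of 10593 negative and 2.82% lower at such a p over all genes tested, with a summed level of 343 to 538 CPM in animals without RT1-Bb and 362 to 554 CPM in animals with it. That summed level pooled the sexes with no adjustment. Of 11 stellate cell markers, 8 were negative (median −0.16, 0 passing by edgeR, 1 lower at an unadjusted p under 0.05). Of 11 hepatocyte markers, 6 were negative (median −0.01, 0 passing, 1 lower and 1 higher at an unadjusted p under 0.05). T and NK cell markers had a median of 0.04 over 9 tested and cholangiocyte markers one of −0.16 over 4, with 0 passing and 0 at an unadjusted p under 0.05 in each. No neutrophil marker was abundant enough to test (0 of 9).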
